A study of Mus musculus with 2 samples.

Results

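Nr4a1, Nr4a2, Nr4a3, Egr1, Egr2 and Egr3, the activation-induced transcription factor genes of the Nr4a and Egr families, were examined for H3K36me2 (histone H3 dimethylated at lysine 36) in regulatory T (Treg) cells of mouse spleen. The 6 genes were taken by name from 21631 protein-coding genes of the RefSeq annotation of GRCm38.p6 (mm10) on chromosomes 1 to 19 and X, each with its gene body and 30 kb on either side. All 6 were found, and all regions in the deposited lists that overlapped these windows were used. These were 36 of 39745 regions in the knockout list and 50 of 54527 in the wild-type list. The knockout library (KO) came from Treg cells of mice with a conditional deletion of Nsd2 in Treg cells, and the other library from Treg cells of wild-type (WT) mice. Both were of the C57BL/6 background. The sources used here do not name the driver of the deletion, the age or number of the mice, or any pooling. With 1 library per genotype no difference has a replicate check, no test was made, and intervals cover counting error only.

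Nr4a factors are orphan nuclear receptors and Egr factors are zinc finger proteins, and both are immediate early genes, transcribed within minutes of T cell receptor engagement without new protein synthesis. Their promoters are known to respond to calcium and cAMP signals through CREB, MEF2 and NFAT, and to growth factor signals through serum response factor and its Ets partners. In T cells Nr4a factors are known to contribute to Foxp3 induction and to the Treg programme, and Egr2 and Egr3 to restrain activation. NSD2 is a histone methyltransferase that places H3K36me2, a mark usually spread broadly over active gene bodies and the sequence between genes.

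The promoters of 4 members matched the RefSeq promoter table (GRCm38.p6), and 1 start each of Nr4a1, Nr4a2, Nr4a3 and Egr2 is printed because the data separate them: a region lay over the Nr4a3 start in both libraries, over the Nr4a1 start in WT only and over the others in neither. Of the 5 listed Egr2 starts, none with a region, start 3 is printed for its motifs, while start 1 has neither motif named next and start 2 only the CArG box. Each run is the 250 bases before the start, 5′ to 3′ on the gene's strand. Capitals mark the core of the cAMP response element (TGACG, either strand) and, in Egr2 only, also the CArG box, the binding sequence of serum response factor.
Nr4a1 promoter, plus strand, chr15:101266596-101266845: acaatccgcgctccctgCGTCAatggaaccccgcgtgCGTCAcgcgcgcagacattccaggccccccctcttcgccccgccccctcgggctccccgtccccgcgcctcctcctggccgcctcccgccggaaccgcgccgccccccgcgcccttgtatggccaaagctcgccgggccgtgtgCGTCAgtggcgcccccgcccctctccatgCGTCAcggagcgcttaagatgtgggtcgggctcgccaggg
Nr4a2 promoter, minus strand, chr2:57124004-57124253: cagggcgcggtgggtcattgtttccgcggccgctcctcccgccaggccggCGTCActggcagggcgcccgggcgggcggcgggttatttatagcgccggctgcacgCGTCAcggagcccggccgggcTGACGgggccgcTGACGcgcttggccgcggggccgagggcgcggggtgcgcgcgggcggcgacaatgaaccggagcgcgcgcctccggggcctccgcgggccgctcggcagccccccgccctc
Nr4a3 promoter, plus strand, chr4:48045055-48045304: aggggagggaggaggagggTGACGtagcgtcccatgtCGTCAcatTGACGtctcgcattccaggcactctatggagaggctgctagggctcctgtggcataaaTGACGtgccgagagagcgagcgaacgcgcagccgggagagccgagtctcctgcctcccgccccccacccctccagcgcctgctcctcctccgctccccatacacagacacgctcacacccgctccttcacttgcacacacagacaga
Egr2 promoter, plus strand, chr10:67537619-67537868: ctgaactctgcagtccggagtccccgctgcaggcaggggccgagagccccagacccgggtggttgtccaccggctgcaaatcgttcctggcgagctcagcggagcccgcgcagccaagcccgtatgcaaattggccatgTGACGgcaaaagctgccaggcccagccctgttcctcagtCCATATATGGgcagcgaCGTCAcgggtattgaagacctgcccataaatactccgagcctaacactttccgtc
The core TGACG or its complement occurred 4 times in each of the Nr4a1, Nr4a2 and Nr4a3 windows. Of 32585 listed upstream windows of this length, 17.8% held it at least once and 0.138% at least 4 times. The Egr2 window held it 2 times, together with 1 CArG box, a motif found in 1.48% of all windows. The Nr4a response element AAAGGTCA, present in 1.35% of all windows, was in none of the 4 windows. The Egr sequences GCGGGGGCG and GCGTGGGCG, searched together and present in 3.08% of all windows, matched 1 time in the Nr4a1 window and in none of the other three. No match in these windows overlapped another. All 4 windows were richer in G and C than the median window (52.4%), with 74.4% in Nr4a1, 80.0% in Nr4a2, 63.6% in Nr4a3 and 61.6% in Egr2. The Nr4a2 window, the richest of the 4, had no region over it in either library.

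The libraries held 14789700 tags in KO and 17158154 tags in WT, and each list was called by the authors on its own library. A peak of 500 bp needed 12 tags in KO and 13 tags in WT, which is 8.11 and 7.58 tags after scaling to 10000000 tags. Over chromosomes 1 to 19 and X the KO list covered 31.4 Mb and the WT list 42.3 Mb, so the KO list covered 74.3% of the WT length. Lower cover at 1 gene has to be read against this. Mean tag density inside regions was 17.3 normalised tags per kb in KO and 16.0 in WT, against a genome average of 5 at this scaling. In a bulk library fewer marked cells and less mark per cell cannot be told apart. The T cell identity of the libraries was checked on gene bodies. Of 11 Treg and CD4 T cell markers 10 held a region in each library, Ctla4 being without one, and 29.6% of their pooled bodies was covered in KO and 28.3% in WT. The pool is weighted by body length, and Bcl11b held the most of it, with 55176 bp in KO and 57894 bp in WT. Per gene the share varied widely, with 58.9% in KO and 61.8% in WT at Bcl11b but 7.49% and 2.17% at Cd3e. Pooled over each list, markers of other cells were covered less. B cell markers had 0.543% in KO and 1.34% in WT, with Ms4a1 at 0 bp in both and Cd79a at 22.9% in KO and 14.7% in WT. Myeloid markers had 6.06% in KO and 4.92% in WT, with Lyz2 and Cd14 at 0 bp in both and Spi1 at 15.2% in KO and 8.90% in WT. Cd79a and Spi1 were thus covered more than some T cell markers, such as Cd3g with 6.98% in KO and 4.39% in WT. CD8 T and NK cell markers had a region at 0 of 5 genes in KO and at 3 of 5 in WT (0% and 6.09% of their bodies), and erythroid markers at 0 of 3 and 1 of 3 (0% and 3.44%). In WT these were Nkg7 (45.1% of its body), Gzma (14.0%), Cd8b1 (4.79%) and the erythroid gene Klf1 (23.0%). Nkg7 and Klf1 thus had more of their bodies covered in WT than Cd4 (22.1%) and Foxp3 (17.6%). The part that this difference between the libraries in markers of other cells has in the results below was not tested.

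The 6 genes differed far more from each other than any of them differed between the genotypes. Nr4a1 had one of the most heavily covered windows of all coding genes in both libraries, Egr1, Egr3 and Nr4a3 had intermediate cover, and Nr4a2 and Egr2 had almost none. The covered share of the Nr4a1 window was 42.2% in KO and 46.6% in WT, at rank 42 in KO and rank 14 in WT among 21631 coding windows. The Egr1 window was covered to 13.8% in KO and 16.7% in WT, and the Egr3 window to 11.0% in KO and 11.9% in WT. The Nr4a3 window was covered to 5.55% in KO and 8.02% in WT. These 4 windows lay above the medians of 0.816% in KO and 1.32% in WT over all coding windows. Egr1 exceeded 95.9% of windows in KO and 97.1% in WT, Egr3 93.8% and 94.4%, and Nr4a3 84.9% and 89.1%. The Nr4a2 window held 0% in KO and 0.648% in WT, and the Egr2 window 0% in both. The order of the 6 genes was the same in both libraries, except that Nr4a2 and Egr2 tied at 0 in KO.

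**Figure D1:**
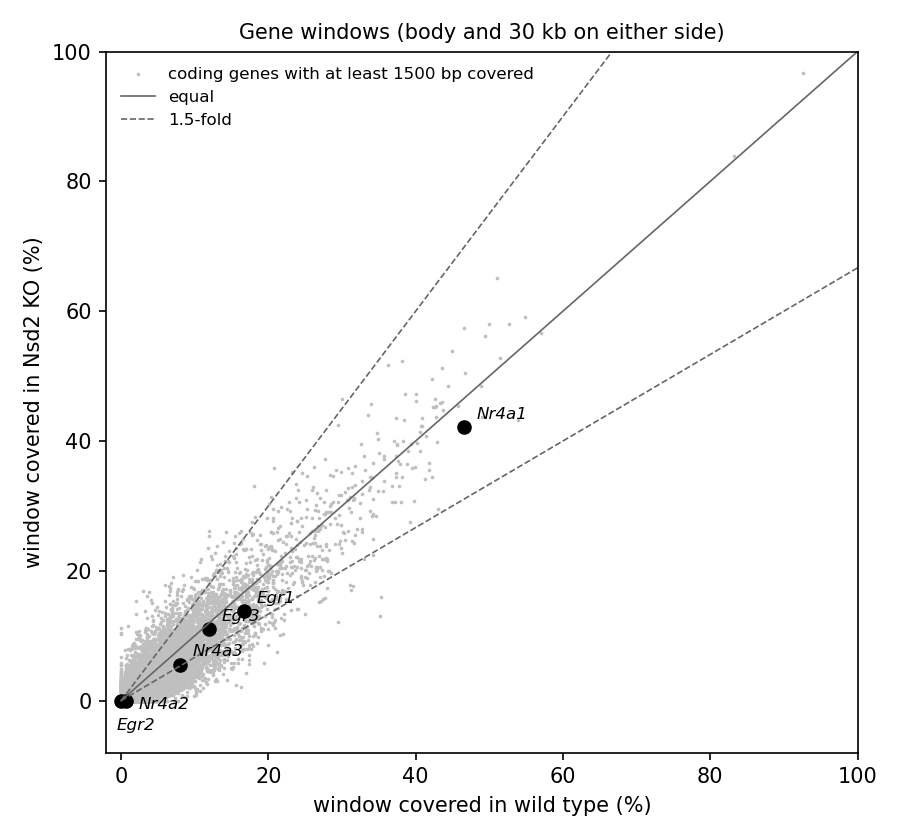
Share of each gene window (gene body with 30 kb on either side) inside H3K36me2 regions, in percent, with KO on the vertical and WT on the horizontal axis. Grey points are the 11189 coding genes with at least 1500 bp covered in either library and black points the 6 Nr4a and Egr genes. The solid line marks equal cover and the dashed lines a 1.5-fold difference, which none of the 4 genes with enough cover passed.

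Pooled over the 6 windows, 456 kb in all, 55705 bp lay in KO regions and 64712 bp in WT regions. KO cover was thus 86.1% of WT cover, above the 74.3% of the whole lists. Normalised tags in these regions came to 1007 in KO and 1095 in WT, or 92.0% (95% counting interval 85.9 to 98.5, exact conditional binomial). The interval takes the called regions as given and leaves out variation in the calling, as do the tag intervals of single genes. Nr4a1 alone supplied 61.2% of the pooled cover in KO and 58.2% in WT, so the pooled values mostly describe that gene. A gene was counted as changed when its window cover differed at least 1.5-fold, with at least 1500 bp in either library. Of the 4 members with enough cover none was lower in KO and none was higher, where 40.5% and 15.1% of all 11189 such coding windows were. Among the 4525 windows with at least 5000 bp in either library, a class that includes these 4, the background was 31.8% lower and 11.3% higher. The 4 ratios of KO to WT cover were 92.4% at Egr3, 90.6% at Nr4a1, 82.5% at Egr1 and 69.2% at Nr4a3, the last just inside the limit. The median over windows past the minimum was 77.8%. With flanks of 10 kb the pooled ratio was 98.7%. Under each of 6 of 8 alternatives 1 member passed the 1.5-fold limit toward lower KO cover. The share of all coding windows past the limit was not computed under these alternatives.

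Nr4a1 (chromosome 15, 101253902 to 101274795, plus strand), which encodes NUR77, the receptor widely used as a reporter of T cell receptor signalling, carried a broad domain over nearly its whole body. Of its 20894 bp, 82.3% lay in regions in KO and 86.5% in WT. The largest region was 11131 bp long in KO (chr15:101255368-101266499) and 12765 bp long in WT (chr15:101255672-101268437). It held 227.5 normalised tags in KO (95% counting interval 204 to 253) and 252.6 in WT (229 to 278). That placed it at rank 30 by tags and rank 24 by length of 39645 KO regions, and at rank 15 by tags and rank 8 by length of 54422 WT regions, on chromosomes 1 to 19 and X. Tag density inside it was 20.4 per kb in KO and 19.8 per kb in WT, above the mean of all regions in each library.

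The Nr4a1 domain continued past both ends of the gene. Chained over gaps of under 3 kb, regions ran without a larger break for 38.5 kb in KO, with 8 regions, and for 27.3 kb in WT, with 5 regions. The order depends on that limit. At 3.5 kb, a limit tried after the data were seen, the chains measured 38.5 kb in KO and 40.3 kb in WT, with 8 regions each. On the lower-coordinate side, which is upstream, KO regions at chr15:101244167-101248343 and chr15:101250207-101254293 held 67.6 and 74.7 tags. In WT the corresponding regions, chr15:101245971-101249414 and chr15:101252748-101255109, held 62.9 and 46.9 tags. A gap of 3334 bp separated this WT pair, and 2541 bp of it lay inside KO regions. On the upstream side as a whole KO cover was 10563 bp and WT cover 9388 bp, whereas on the downstream side it was 6355 bp in KO and 10195 bp in WT. Over the 30 kb flanks, cover was thus larger upstream in KO and larger downstream in WT, with 17195 bp and 18079 bp in the body. Part of the downstream cover lay outside the chains. In WT this was 5500 bp in 6 regions past a gap of 10576 bp, and in KO 1409 bp in 2 regions and 3330 bp in 4. Over the window KO had 34113 bp in 15 regions and WT 37662 bp in 18 regions, with 623 and 654 normalised tags (95.2%, interval 87.2 to 104.0). The direction of the cover difference was not stable, since flanks of 10 kb gave 27591 bp in KO and 27371 bp in WT.

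**Figure D2:**
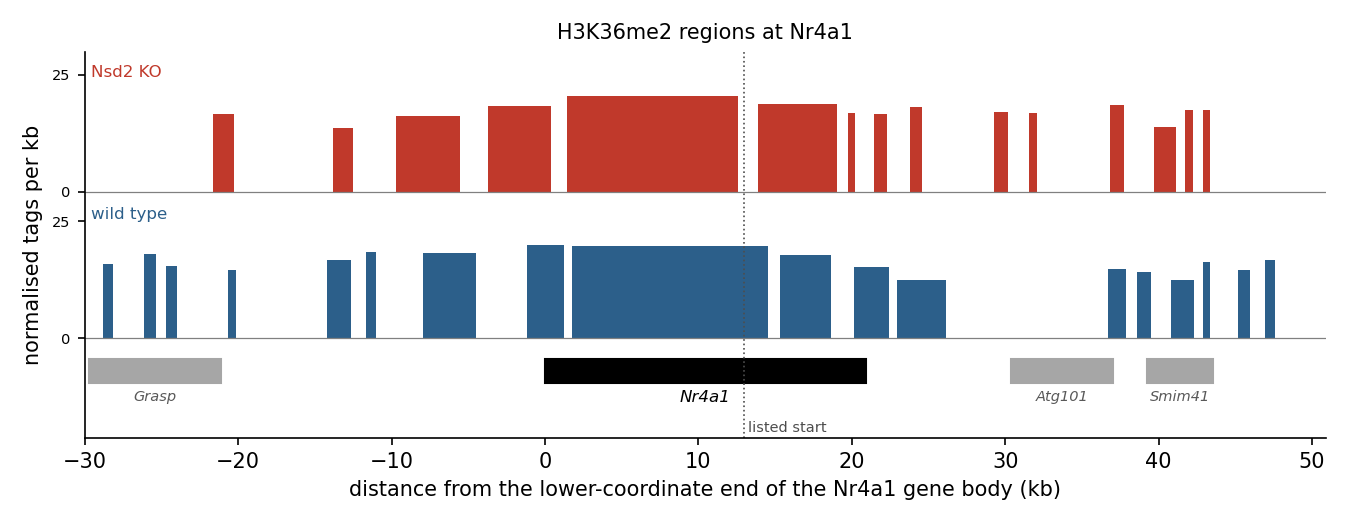
Regions at Nr4a1 in KO (upper row) and WT (lower row), drawn to scale along the distance from the lower-coordinate end of the gene body in kb, with height giving normalised tags per kb of region. Bars below are gene bodies (black for Nr4a1, grey for coding neighbours), and the dotted line is the listed start, which lies 12.9 kb into the annotated body, inside the largest WT region and in a gap of 1277 bp between KO regions.

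The printed Nr4a1 promoter sat where the libraries differed within the domain. The listed start, 12.9 kb from the lower end of the annotated body, fell inside the 12765 bp WT region, and all 300 bp of the promoter table's window around it were covered. In KO the same window was covered to 0 bp. The 11131 bp KO region ended 347 bp before the start and the next one (chr15:101267776-101272949, 97.7 tags) began 930 bp after it. The gap between them was 1277 bp, all of it inside WT regions. WT had its own break further on, of 804 bp, all of it inside KO regions. Such a difference at a start was common in these lists. Of 1814 listed coding starts inside a WT region, 52.3% lay in no KO region, and of 1820 inside a KO region 52.5% lay in no WT region. Merging regions closer than 2000 bp closes the KO gap.

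Neighbours of Nr4a1 shared the window. Grasp, which encodes a scaffold protein, lies upstream and had 472 bp in KO and 2095 bp in WT. Atg101, an autophagy gene downstream, had 695 bp in KO and 344 bp in WT, and Smim41 had 2439 bp and 2184 bp. Of the 15 KO regions 13 overlapped a WT region, and of the 18 WT regions 11 overlapped a KO region.

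Nr4a3 (chromosome 4, 48045078 to 48086447, plus strand), which encodes NOR1 and is the member with the longest body, had scattered short regions, one of them over its start. The region over the printed promoter was present in both libraries, at chr4:48044404-48045485 in KO with 19.3 tags (12.9 to 27.8) and at chr4:48044619-48045420 in WT with 13.4 tags (8.49 to 20.1). The WT region lay wholly inside the KO one. Such starts were a minority, since 4.12% of 21020 listed coding starts lay in regions of both libraries. KO had a further region of 999 bp at chr4:48042699-48043698 with 18.9 tags, which had no counterpart in WT.

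Further shared sites lay deeper in the Nr4a3 body. The largest was a WT region of 2067 bp (chr4:48072896-48074963) with 36.4 tags (27.9 to 46.6). KO had a region of 706 bp with 12.2 tags wholly inside it and a region of 500 bp with 8.79 tags that overlapped its end by 33 bp. Body cover was 6.81% in KO and 10.3% in WT. Downstream of the gene KO held no region and WT held 2, of 500 bp with 7.87 tags and of 887 bp with 16.6 tags. In all, Nr4a3 had 8 regions with 5628 bp in KO and 10 regions with 8134 bp in WT. Tags over the window were 97.7 in KO and 135 in WT, or 72.4% (58.5 to 89.6). That was the lowest share among the 4 covered members, where the tags of all regions stood at 80.2%. The interval takes the called regions as given, and 20.5% of the sequence covered in either library lay in both. KO cover was the lower one under all 8 alternatives, and the 1.5-fold limit was passed in 3 of them.

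Nr4a2 (chromosome 2, 57106830 to 57124003, minus strand), which encodes NURR1, the receptor required for midbrain dopamine neurons, was almost bare. KO held no region in the window of 77.2 kb, and its nearest region lay 104 kb from the body. WT held 1 region of 500 bp (chr2:57104492-57104992), 1.84 kb beyond the lower-coordinate end, with 6.70 tags (3.40 to 11.8). Its peak score was 13 tags, the lowest the WT list allowed, and 11.2 tags at KO depth, under the KO threshold of 12. In 10.2% of coding windows WT had a region and KO had none, and in 5.73% the reverse held. The gene body and the printed promoter were without a region in both libraries.

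Egr2 (chromosome 10, 67534469 to 67542188, plus strand), which encodes KROX20, a regulator of T cell anergy and of hindbrain and Schwann cell development, had no region in its window of 67.7 kb in either library. The nearest region lay 121 kb away in KO and 140 kb away in WT, each of 500 bp, and on the lower-coordinate side the next lay 329 kb and 383 kb away. Windows without a region in either library made up 24.6% of coding windows. None of the 5 listed Egr2 starts had a region over it. A list of regions does not give the signal below the threshold, so the level at Egr2 in both libraries, and at Nr4a2 in KO, is known only to lie under the calling limit.

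Egr1 (chromosome 18, 34861207 to 34864956), the archetypal immediate early zinc finger gene, was the member with the clearest difference inside its body. KO had 1 region of 923 bp there (chr18:34862531-34863454) with 18.3 tags (12.1 to 26.6), and WT had none. Body cover was 24.6% in KO and 0% in WT, a difference of 24.6 points. By a limit of 20 points Egr1 was the only one of 4 measured members counted as higher in KO and none was lower, where 1.93% and 1.71% of 11216 measured coding genes were. In a body of 3750 bp 1 region sufficed to pass that limit. Under settings chosen after the data were seen, the difference was 0 without regions under 1 kb and 100 points when regions closer than 2000 bp were merged.

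Most of the mark at Egr1 lay on the lower-coordinate side. The largest KO region there was 4414 bp long (chr18:34852828-34857242) with 78.8 tags (65.1 to 94.5), at rank 337 by tags among KO regions. WT had 2 regions over the same stretch, of 1564 bp with 25.4 tags and of 1703 bp with 32.3 tags, separated by 502 bp that KO covered throughout. Further out the balance turned. At Reep2, a gene of the endoplasmic reticulum, KO had 647 bp in 1 region and WT 2967 bp in 3 regions. A shared region lay just beyond the other end of Egr1, with 10.1 tags in KO and 10.8 tags in WT. Over the window KO held 8790 bp in 8 regions and WT 10649 bp in 11 regions, with 156 and 168 tags (92.9%, interval 77.7 to 111). Near the gene, with flanks of 10 kb, KO cover was the larger one, at 7337 bp against 6421 bp in WT, so the sign depended on the window. In the higher-scoring 50% of regions Egr1 passed the 1.5-fold limit toward lower KO cover, with 2070 bp in KO and 3207 bp in WT.

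Egr3 (chromosome 14, 70077317 to 70082613), which acts with Egr2 in T cells, had cover that differed little in amount over this window but lay partly elsewhere. A region in the body was shared, of 695 bp with 13.5 tags in KO and of 769 bp with 12.5 tags in WT, and 624 bp of it were common. Body cover was 13.1% in KO and 14.5% in WT. The largest regions lay on the lower-coordinate side inside Pebp4, a phosphatidylethanolamine-binding protein gene. KO had 2 regions there, of 2518 bp with 46.0 tags and 2654 bp with 50 tags. WT had 4 there, of which the largest was 1808 bp long with 36.4 tags and lay wholly inside the second KO region.

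On the higher-coordinate side of Egr3 KO held no region, and WT held 3 of 500 bp each with 7.29 to 8.45 tags. Over the window KO had 7174 bp in 5 regions and WT 7767 bp in 10 regions, with 130.1 and 130.5 tags (99.7%, interval 81.6 to 121). The tag totals thus differed by less than 1 tag, in 5 KO regions and 10 WT regions. With WT regions of 500 bp held to the KO threshold, WT cover was 6267 bp and the sign of the difference turned. With other flanks Egr3 passed the 1.5-fold limit toward lower KO cover, at 1195 bp in KO and 1812 bp in WT with 10 kb, and at 9748 bp in KO and 15563 bp in WT with 50 kb.

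**Figure D3:**
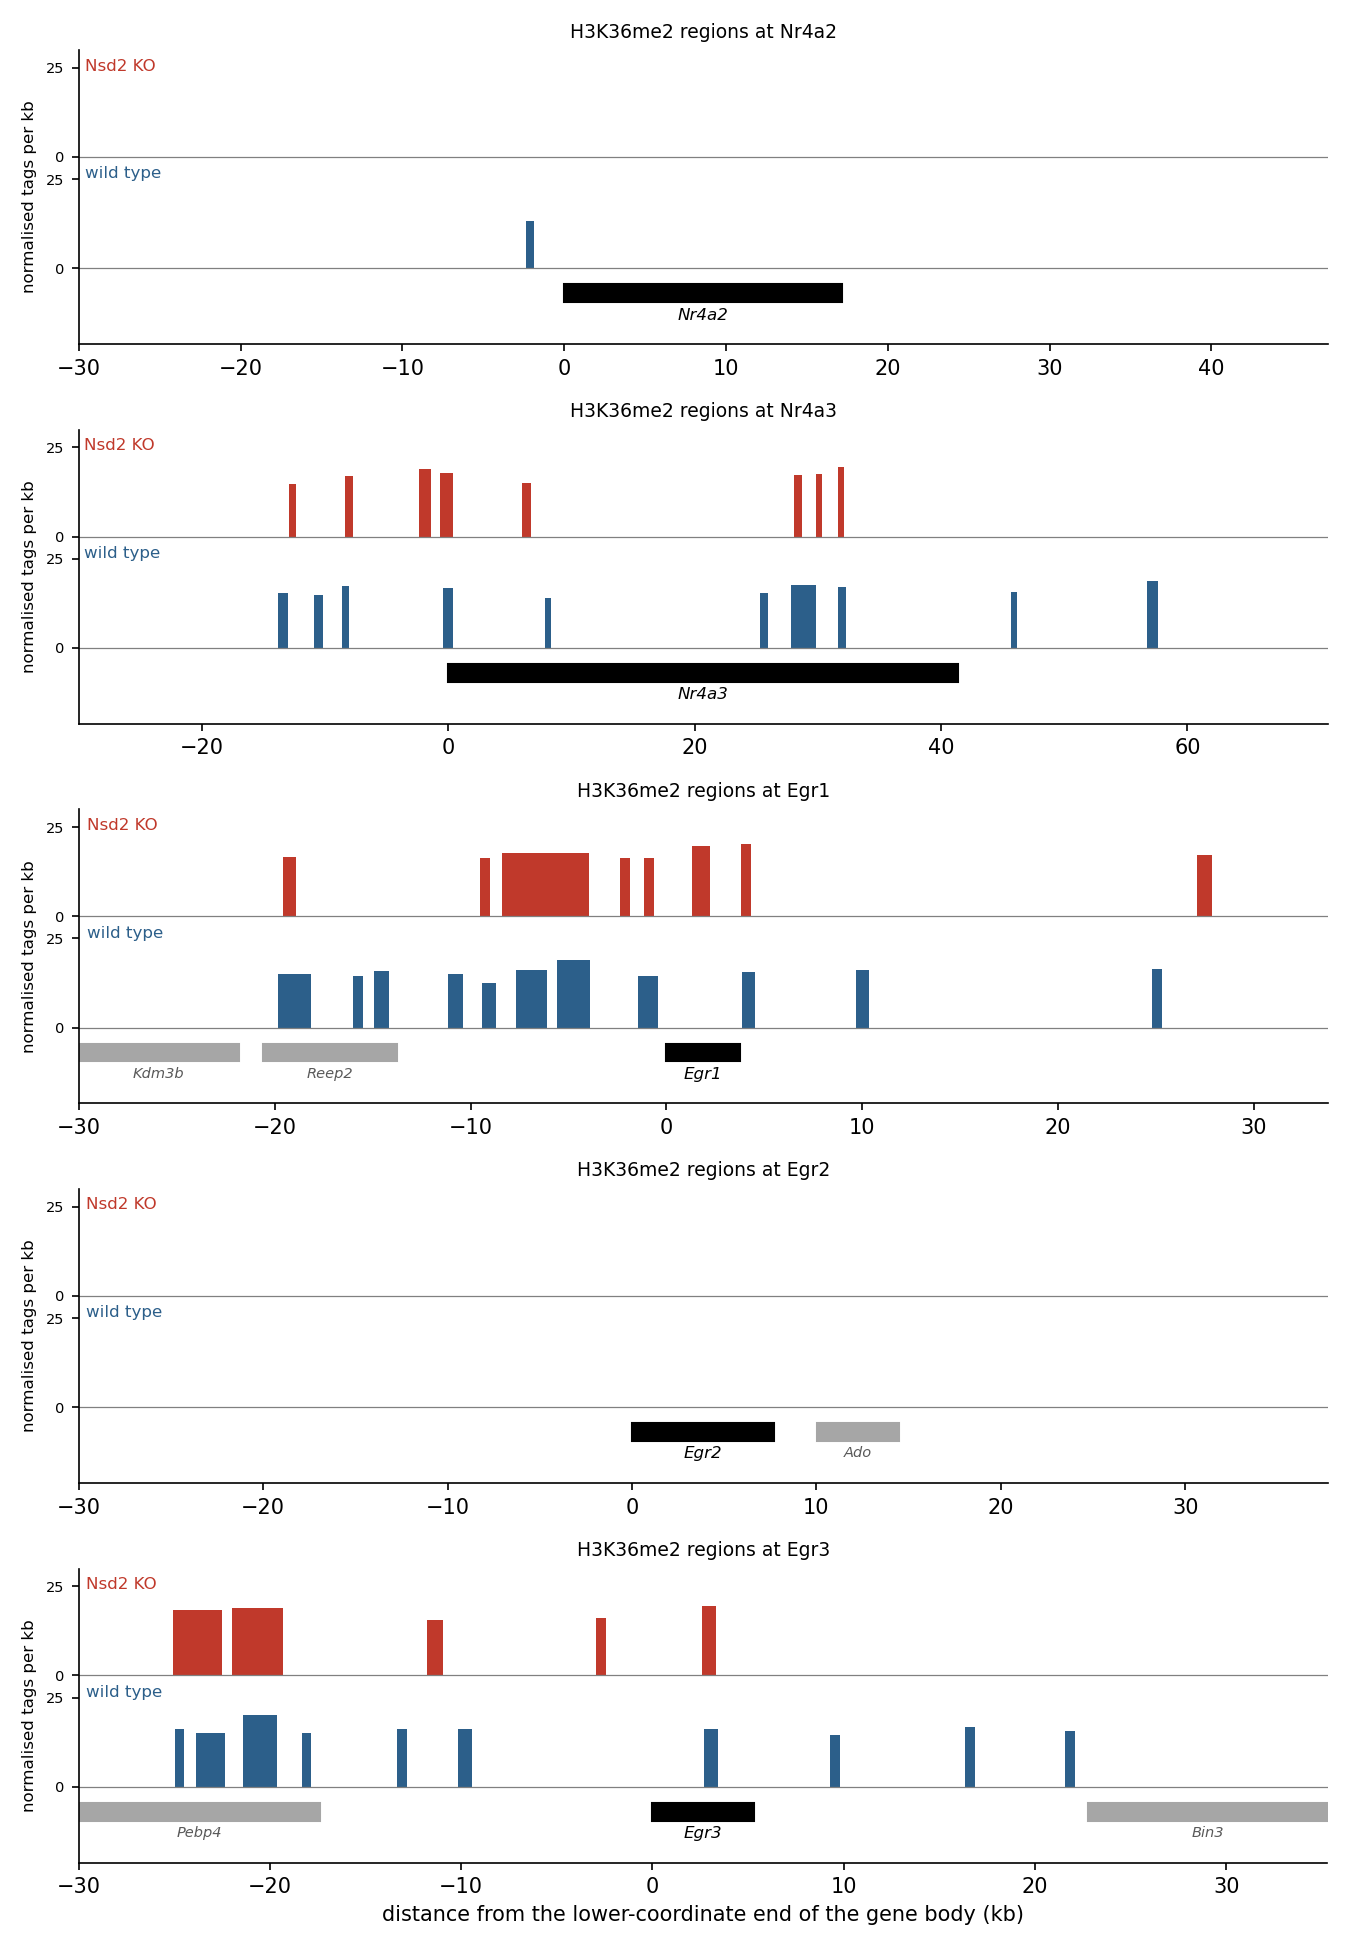
Regions at Nr4a2, Nr4a3, Egr1, Egr2 and Egr3 in KO (upper row of each panel) and WT (lower row), along the distance from the lower-coordinate end of each gene body in kb, with height giving normalised tags per kb of region. Black bars are the named genes and grey bars coding neighbours. Nr4a2 has 1 region, in WT, Egr2 has none, and the 4414 bp KO region at Egr1 spans 2 WT regions.

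Across the windows, with all regions taken, sharing was more frequent than in the lists as a whole. In the 6 windows 26 of 36 KO regions (72.2%, exact binomial interval 54.8 to 85.8) overlapped a WT region by at least 1 bp, against 41.0% of all KO regions. In the higher-scoring 50% of each list the KO share in the windows was 11 of 24 (45.8%). The share over all higher-scoring regions was not computed, so whether the excess holds among them is not known. In the other direction 25 of 50 WT regions (50%, interval 35.5 to 64.5) overlapped a KO region, against 29.8% of all WT regions. Nr4a1 supplied 13 of the 26 and 11 of the 25, and nothing here shows that the share is particular to these genes. Both intervals treat regions as independent, which neighbouring regions of 1 gene need not be. Of the KO regions 12 of 36, and of the WT regions 14 of 50, were 500 bp long. That was the median length of all regions in each list, and regions of like length were not compared. Shared regions had a median length of 808 bp in KO and 1492 bp in WT, and regions without a counterpart 755 bp in KO and 654 bp in WT. The 10 KO regions without a counterpart were at most 999 bp long and the 25 such WT regions at most 887 bp. Of these 25, 15 had a peak score that fell under the KO threshold when scaled to KO depth, as did 10 of the 25 shared WT regions. The part of the depth and threshold in the difference was not tested.

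Base by base, the libraries shared 50.8% of the sequence covered in either at Nr4a1, 39.7% at Egr3, 37.1% at Egr1 and 20.5% at Nr4a3. The median over 7666 coding windows with at least 1500 bp in each library was 16.4%, and the 4 genes exceeded 97.1%, 91.7%, 89.6% and 62.1% of those windows. The 4 genes lie well above that minimum, with at least 5628 bp in KO and 7767 bp in WT. They were not compared with windows of like cover. Tag density inside regions was 17.4 to 18.3 per kb in KO and 15.8 to 17.4 per kb in WT at these 4 genes. At each of them it was higher in KO, as in the lists as a whole. The scaled calling threshold was also higher in KO, at 8.11 tags against 7.58 tags in WT, and its part was not tested.

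**Figure D4:**
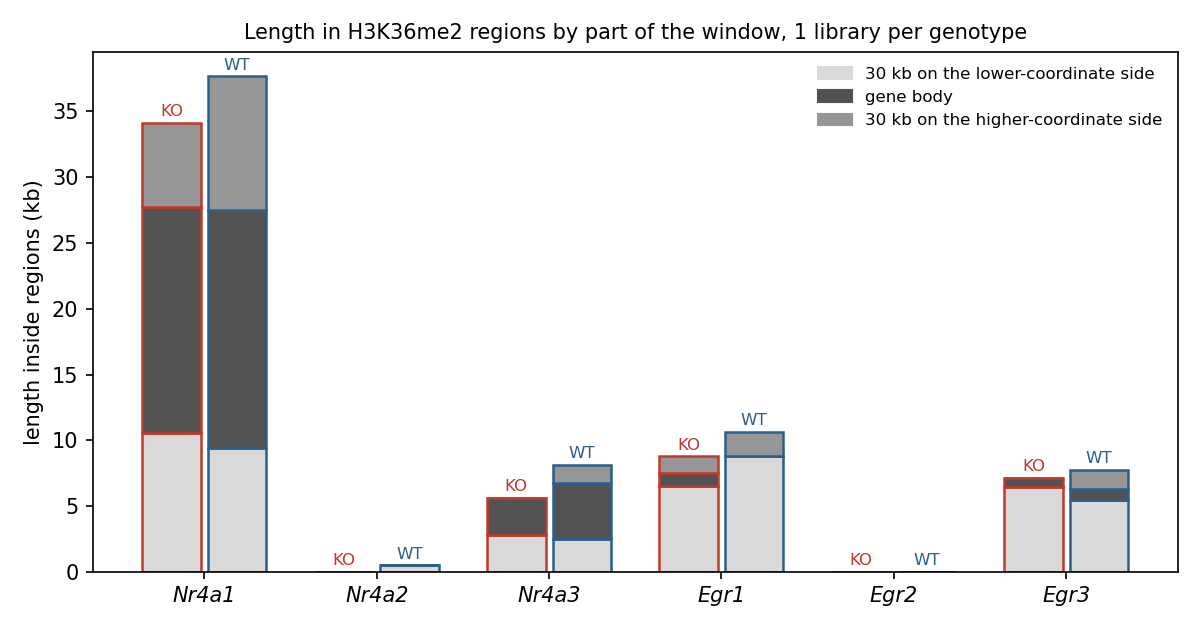
Length inside H3K36me2 regions in kb, stacked by part of the window, for KO (left bar of each pair, red outline) and WT (right bar, blue outline), 1 library each. Nr4a1 has 34113 bp in KO and 37662 bp in WT. On the higher-coordinate side KO has no cover at Nr4a3 and Egr3, where WT has 1387 bp and 1500 bp.

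The position of the lower KO cover differed among the 4 genes. On the higher-coordinate side KO minus WT was -3840 bp at Nr4a1, -1387 bp at Nr4a3, -544 bp at Egr1 and -1500 bp at Egr3. That side had the largest drop at Nr4a1 and Egr3 only. In the body KO minus WT was -884 bp at Nr4a1, -1427 bp at Nr4a3, 923 bp at Egr1 and -74 bp at Egr3. The largest drop was in the body at Nr4a3 and on the lower-coordinate side at Egr1. On the lower-coordinate side KO had more at 3 of the 4, with 10563 bp against 9388 bp in WT at Nr4a1, 2811 bp against 2503 bp at Nr4a3 and 6479 bp against 5498 bp at Egr3, and less at Egr1, with 6561 bp against 8799 bp. For Nr4a1 and Nr4a3 the lower-coordinate side is upstream. The sides were set beside each other after the values were seen.

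Cofactors and relatives, inducers, known or candidate targets and other activation-induced genes were set beside these factors in 4 lists. The lists had 59 members, all found, of which 52 had at least 1500 bp covered in either library. By the 1.5-fold limit 7 were lower in KO (13.5%) and 8 higher (15.4%), against the 40.5% and 15.1% of all such windows. Among windows with at least 5000 bp in either library, a class that many but not all of these genes reach, the background was 31.8% and 11.3%. Windows of neighbouring genes can share regions. For each list the genes with the largest differences in either direction are given, and genes past the limit that are not among these were chosen after their values were seen. Among cofactors and relatives of Egr, 1 of 3 was lower (Nab1) and 1 higher (Wt1). Nab1, a corepressor that binds Egr proteins, had 500 bp in KO and 2249 bp in WT, and Nab2, the other such corepressor, 5120 bp and 5537 bp. Wt1, a related zinc finger gene, had 1843 bp in KO and 766 bp in WT.

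Among the factors that induce the families and their regulators, 3 of 12 were lower (Hdac4, Creb1 and Mef2a) and 1 higher (Elk4). Hdac4, a deacetylase that represses MEF2, had 23926 bp in KO and 40550 bp in WT, and Nfatc1, a calcium-regulated factor, 23812 bp and 35610 bp. Elk4, an Ets partner of serum response factor, had 6275 bp in KO and 1000 bp in WT. Hdac7, a deacetylase that represses Nr4a1 in thymocytes, had 29132 bp in KO and 22726 bp in WT, within the limit. The median difference over the 12 measured genes was -0.89 points of window cover, against -0.82 points over all windows past the minimum.

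Among known or candidate targets 1 of 16 was lower (Bcl6) and 2 were higher (Ctla4 and Dgka), with a median difference of -0.50 points over the 16. Dgkz, a diacylglycerol kinase that limits T cell receptor signals, had 13970 bp in KO and 18623 bp in WT, and Cblb, a ubiquitin ligase of tolerance, 9340 bp and 13563 bp. Ctla4, the inhibitory receptor, had 5163 bp in KO and 2225 bp in WT, and Socs1, a cytokine signalling inhibitor, 30541 bp and 26043 bp. Other activation-induced genes had the largest pooled cover of the 4 lists, 16.0% in KO and 15.0% in WT, with 2 of 21 lower (Tnfaip3 and Myc), 4 higher (Nfkbia, Fos, Fosb and Ier3) and a median difference of 1.59 points over the 21. Nfkbia, the NF-kB inhibitor gene, had 13248 bp in KO and 8259 bp in WT, and Cd5, an inhibitory receptor that follows signal strength, 39246 bp and 35967 bp. Dusp5, a phosphatase of ERK, had 13250 bp in KO and 19118 bp in WT, and Tnfaip3, an NF-kB inhibitor, 7469 bp and 11935 bp. Of the other genes past the limit, Myc had 1494 bp in KO and 2625 bp in WT. Fos had 7985 bp in KO and 4753 bp in WT, Fosb 4803 bp and 2236 bp, and Ier3 2167 bp and 1155 bp.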

How the data were processed

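H3K36me2 libraries were made with a kit for in situ ChIP and an index kit, per the labels' protocols. Per the submitters' processing notes the build was mm10 and the tools were HOMER, Bowtie2, deepTools, Picard and Trim Galore, no version being named. The sources used here name no antibody or input. Per the file headers, HOMER findPeaks in histone style stitched 500 bp peaks into regions for each library, with no control, a Poisson threshold of 0.001 and a local threshold of 0.0001 over 10000 bp. Each region's signal is a normalised tag count made by the authors, which per the file headers is set to a total of 10000000 tags, so a change in the genome-wide amount of the mark cannot be seen in it. The deposited score is a number of tags in a 500 bp peak. No use was made of the deposited ratio called clonal fold change.

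Region length was end minus start, and partial overlaps counted in proportion. Windows, cover and tags were computed in Python 3.11.15 with numpy 2.4.6, pandas 2.3.3 and scipy 1.17.1. The code for cover was checked on the WT list. The 1.5-fold call was checked on a copy of that list with the regions of randomly drawn windows removed. Named were the 6 members, coding genes in their windows that a region touched and, per list, the 2 measured genes with the largest difference in each direction, with other list genes past the limit added after their values were seen. Members, lists and limits were chosen with earlier results of these data known. Tags are PCR reads without molecular identifiers. Each library was compared as 1 sample, and the calling threshold, region length, flank, merging, overlap and scaling were varied.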

Additional observations from a re-analysis of the deposited data

How the results depend on the processing

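Nothing here has a replicate, and what lies under the authors' calling threshold could not be measured. KO cover of the 6 windows, 86.1% of WT as reported, was 76.6% in the higher-scoring 50% of regions, 98.7% with flanks of 10 kb, 81.5% with flanks of 50 kb and 115.8% when KO cover was divided by the ratio of the lists' covered lengths. It stayed between 86.1% and 93.7% under the other 4 alternatives. Tags, 92.0% as reported, were 78.4% in the higher-scoring 50% and 104.6% with flanks of 10 kb. The count of members at least 1.5-fold lower in KO, 0 as reported, was 1 in the higher-scoring 50% (Egr1), 1 with regions of over 500 bp only, 1 with gene bodies only and 1 after merging within 2000 bp (Nr4a3 each time), and 1 with flanks of 10 kb and of 50 kb (Egr3). No member with at least 1500 bp in either library was 1.5-fold higher in KO under these 8 alternatives. In gene bodies, only Nr4a1 and Nr4a3 reached that minimum. Egr1, with 923 bp in KO and 0 bp in WT, did not. The share of all coding windows past the limit was not computed under any of the 8. The share of KO regions overlapping WT was 45.8% in the higher-scoring 50%, and that of WT regions overlapping KO was 69.6% with flanks of 10 kb and 80.0% in gene bodies. The cause was not tested for any of these. Over the 7 alternatives that do not rescale KO cover, it was lower than WT under 6 at Nr4a1, 4 at Egr1 and 4 at Egr3, and higher under the others. No paired analysis was possible because each genotype has 1 library.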
